A study of Arabidopsis thaliana with 12 samples.

Results

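Transcripts of 4 Arabidopsis genes of the iron deficiency response were followed in whole germinants grown on titania or ceria particles. The genes were BHLH101, PYE, AT1G47400 (IMA1) and AT3G13610 (F6'H1), chosen by name for their place in the response, with earlier results of these data known. They were read from probe sets that the array annotation pairs with 1 gene alone. Each had 1 such probe set, so they make up 4 of the 13356 genes with a probe set of their own and 4 of the 22746 probe sets measured.

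All germinants were of the Columbia ecotype (Col-0), with no transgene or mutation named, and were 12 days old. They grew from 50 seeds per dish on a 9 cm glass fibre disc wetted with 2 mL of liquid. The 4 groups were 0.1 mM KCl, TiO2 at 500 mg per L with KCl as its control, sterile purified water, and CeO2 at 500 mg per L with water as its control. Each group had 3 Affymetrix arrays. The labels call the KCl and TiO2 arrays biological replicates and the water and CeO2 arrays only replicates, so the spread of the latter may be technical. The main fit estimates the spread of a probe set over all 12 arrays together. This limit therefore reaches the p-values for TiO2 as well as those for CeO2. Whether the TiO2 suspension also held KCl is not stated. Roots and shoots were extracted together, so fewer cells of a type and less RNA per cell cannot be told apart.

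Plants short of iron switch on a regulatory cascade of basic helix-loop-helix (bHLH) transcription factors, chiefly in the root. FIT, paired with a factor of the subgroup that holds BHLH38, BHLH39, BHLH100 and BHLH101, activates the reductase and transporter that bring iron into the root epidermis. PYE, a further bHLH factor of the root stele, represses genes of iron distribution under shortage. IMA1 encodes a small peptide that promotes the uptake response and is itself induced by iron shortage. F6'H1, feruloyl-CoA 6'-hydroxylase, commits phenylpropanoids to the coumarin scopoletin, the precursor of catechol coumarins that roots secrete to mobilise ferric iron; scopoletin is also made in defence.

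The deposited values are log2 expression values from robust multi-array average (RMA). Array medians were 5.69 to 5.74 log2 in KCl and TiO2 and 5.88 to 5.92 in water and CeO2, and no array held a value under 2.3, the dimmest probe set of each being at or below 2.51. Arrays of a group correlated at 0.993 to 0.997 across probe sets, and arrays of a particle and its control at 0.988 to 0.995. Between the KCl and TiO2 set and the water and CeO2 set the quantiles were up to 0.259 log2 apart, while a single array strayed from its own set of 6 by 0.0833 at most. Levels of the 4 genes set side by side across these sets are therefore given with their values after 1 quantile normalization over all 12 arrays, and are not tested. Markers of both organs were present in all groups, by the deposited values: the leaf gene RCA, rubisco activase, had group means of 13.53 to 13.72 log2, and the root hair peroxidase gene AT4G26010 (PRX44) had means of 10.30 to 11.56.

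In TiO2 germinants all 4 genes were lower than in KCl, by 1.84-fold for BHLH101, 1.74-fold for AT1G47400, 1.45-fold for AT3G13610 and 1.34-fold for PYE. Each passed the test across all probe sets (limma, two-sided, adjusted p under 0.05), as did 5.86% of all probe sets in the lower direction. In none of the 4 did a TiO2 array overlap a KCl array; 11.3% of all probe sets were lower with no overlap. The 4 genes were taken up with earlier results of these data known, so their number past the threshold is a description and no evidence of its own.

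**Figure D1:**
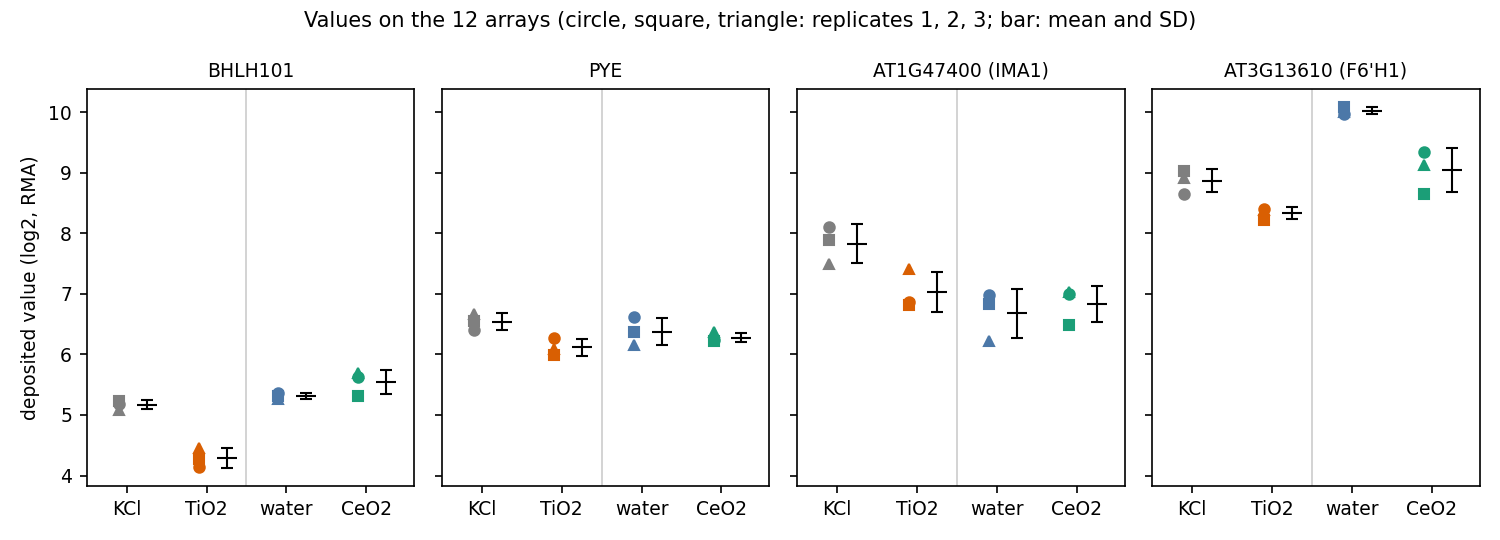
Deposited log2 values (y axis) of the 4 genes on every array, by group (x axis), with the group mean and SD over 3 arrays beside the points; the vertical line parts the sets of 6 arrays. All 4 genes lie lower in TiO2 than in KCl without overlap, and between CeO2 and water only AT3G13610 parts the groups.

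BHLH101 stood at 5.19, 5.23 and 5.08 log2 on the KCl arrays and at 4.14, 4.27 and 4.46 on the TiO2 arrays. The groups were 0.63 log2 apart at their nearest arrays, a wider gap than the spread within either. The means were 5.17 ± 0.07 and 4.29 ± 0.16 (SD, n = 3). The difference was −0.88 ± 0.11 log2 (SE; 95% interval −1.11 to −0.65; limma adjusted p = 6.47e-05), which left 54.4% of the KCl level. It was the 235th lowest change of the 22746. The call held in each of the 12 alternative settings, with adjusted p from 3.38e-05 to 0.00165. On the water arrays BHLH101 was at 5.37, 5.31 and 5.26, and on the CeO2 arrays at 5.62, 5.32 and 5.7. These groups overlapped, with means of 5.31 ± 0.05 and 5.54 ± 0.20, and the difference of 0.23 ± 0.11 (95% interval 0 to 0.46) did not pass (limma adjusted p = 0.5).

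PYE was at 6.40, 6.56 and 6.67 log2 in KCl and at 6.27, 5.99 and 6.09 in TiO2. The nearest arrays of the groups were 0.13 log2 apart, less than the range within either group. The means of 6.54 ± 0.14 and 6.12 ± 0.14 gave a difference of −0.43 ± 0.12 (95% interval −0.68 to −0.17; limma adjusted p = 0.0292). The limma adjusted p rose past the threshold when KCl replicate 2 (0.0781), KCl replicate 3 (0.0844), TiO2 replicate 2 (0.116) or TiO2 replicate 3 (0.0797) was left out, and when only the 6 compared arrays were fitted (0.0539). Its alternatives spanned 0.0235 to 0.116. PYE was at 6.62, 6.37 and 6.15 in water and at 6.24, 6.22 and 6.37 in CeO2, where the CeO2 values lay inside the range of the water values. The difference there was −0.10 ± 0.12 (95% interval −0.35 to 0.15; limma adjusted p = 0.917).

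AT1G47400 (IMA1) had the largest SD of the 4 genes in KCl, TiO2 and water. It stood at 8.10, 7.90 and 7.49 log2 in KCl and at 6.87, 6.81 and 7.41 in TiO2. The highest TiO2 array lay only 0.08 log2 below the lowest KCl array. The means were 7.83 ± 0.32 and 7.03 ± 0.33, a difference of −0.80 ± 0.21 (95% interval −1.25 to −0.35; limma adjusted p = 0.0230), or 57.4% of the KCl level. Leaving out KCl replicate 1, KCl replicate 2, TiO2 replicate 1 or TiO2 replicate 2 ended this call, with limma adjusted p of 0.100, 0.0721, 0.0820 and 0.0980. The alternatives spanned 0.00754 to 0.100. In water it was at 6.98, 6.84 and 6.22 and in CeO2 at 7.0, 6.49 and 7.03, and these groups overlapped. The difference was 0.16 ± 0.21 (95% interval −0.29 to 0.61; limma adjusted p = 0.931), and −0.07 without water replicate 3. The array annotation lists no probe set for AT1G47395 (IMA2), a neighbouring gene of the same peptide family, and whether these probes also bind its transcript was not tested.

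AT3G13610 (F6'H1) was the only one of the 4 to pass the test under both particles. It stood at 8.66, 9.04 and 8.91 log2 in KCl and at 8.41, 8.22 and 8.38 in TiO2, with 0.26 log2 between the nearest arrays. The means were 8.87 ± 0.19 and 8.34 ± 0.10, a difference of −0.53 ± 0.14 (95% interval −0.84 to −0.23; limma adjusted p = 0.0245). Without KCl replicate 2, TiO2 replicate 2 or TiO2 replicate 3 it did not pass, with limma adjusted p of 0.102, 0.0932 and 0.0519. The alternatives spanned 0.0140 to 0.102.

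In CeO2 germinants AT3G13610 fell from 9.98, 10.09 and 10.01 log2 on the water arrays to 9.35, 8.65 and 9.14. The water arrays lay close together and the CeO2 arrays were spread, yet the nearest arrays of the groups were 0.63 log2 apart. The means were 10.03 ± 0.06 and 9.05 ± 0.36, a difference of −0.98 ± 0.14 (95% interval −1.29 to −0.68; limma adjusted p = 5e-04), or 1.97-fold. It was the 81st lowest change of the 22746, and the call held in each of the 12 alternatives (adjusted p from 8.51e-05 to 0.00483). Thus 1 of the 4 genes passed in the lower direction under CeO2, where 1.16% of all probe sets did, and none passed in the higher direction, where 1.26% did. The same gene was the only one of the 4 whose CeO2 arrays lay below all water arrays, against 8.54% of all probe sets.

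The difference between the particle effects (CeO2 effect minus TiO2 effect) was tested in the same model. BHLH101 differed by 1.11 ± 0.15 log2 (95% interval 0.79 to 1.43; limma adjusted p = 0.000225), and passed in each of 17 alternatives. It was the 1 gene of the 4 that passed here, in the more positive direction, as did 4.64% of all probe sets. AT1G47400 differed by 0.96 ± 0.30 (95% interval 0.32 to 1.60; limma adjusted p = 0.0633). That difference passed in 5 of the 17 alternatives, whose limma adjusted p spanned 0.0210 to 0.167. PYE differed by 0.33 ± 0.17 (95% interval −0.03 to 0.68; limma adjusted p = 0.307), and by 0.21 without water replicate 3. For AT3G13610, lower under both particles, the difference was −0.45 ± 0.20 (95% interval −0.88 to −0.02; limma adjusted p = 0.229), so that a larger fall under CeO2 was not shown. It was −0.25 without CeO2 replicate 2 and spanned −0.60 to −0.25 with single arrays left out. Each particle had its own control liquid and its own set of arrays, and these cannot be told apart.

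**Figure D2:**
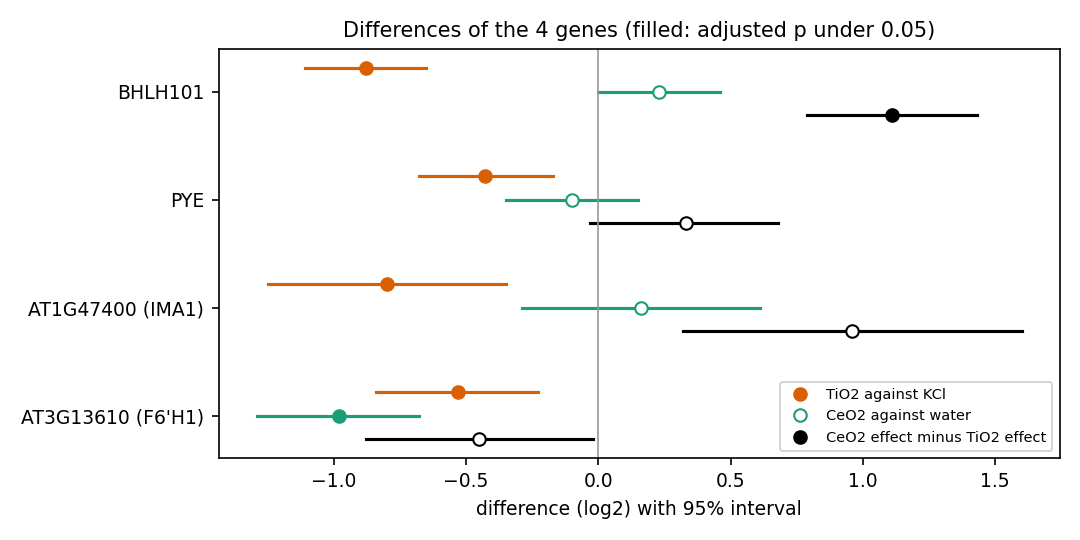
Differences in log2 (x axis) with 95% intervals for the 4 genes (y axis) in TiO2 against KCl, in CeO2 against water and between the particle effects; filled points have an adjusted p under 0.05. All 4 TiO2 points are filled and below 0, from −0.88 to −0.43, while under CeO2 only AT3G13610 is filled, at −0.98.

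The levels in the 4 groups had a different order for each gene. AT3G13610 was highest in water at 10.03, then CeO2 at 9.05, KCl at 8.87 and TiO2 at 8.34, and the order was the same after quantile normalization over the 12 arrays (10.07, 9.05, 8.86 and 8.36). The CeO2 arrays, from 8.65 to 9.35, spanned the KCl arrays, from 8.66 to 9.04, while the water arrays lay above all others. AT1G47400 had its highest mean in KCl at 7.83, followed by TiO2 at 7.03, CeO2 at 6.84 and water at 6.68 (7.85, 7.10, 6.76 and 6.60 after normalization over all arrays). Its KCl arrays lay above all others, and the arrays of the 3 lower groups overlapped.

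BHLH101 had means of 5.54 in CeO2, 5.31 in water, 5.17 in KCl and 4.29 in TiO2. After normalization over all arrays these were 5.46, 5.23, 5.26 and 4.29, so that the small step between water and KCl turned and TiO2 stayed lowest. PYE had means of 6.54 in KCl, 6.38 in water, 6.28 in CeO2 and 6.12 in TiO2. After normalization over all arrays these were 6.62, 6.29, 6.19 and 6.21, which widened the step from KCl to water and turned the order of CeO2 and TiO2. The water range of PYE, from 6.15 to 6.62, overlapped those of the other groups.

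Among arrays of a group, BHLH101 and AT1G47400 tended to be high or low together. In KCl both were lowest on replicate 3, in TiO2 both were highest on replicate 3, and in CeO2 both were lowest on replicate 2. After subtraction of the group means their Pearson correlation over the 12 arrays was 0.781, whereas that of BHLH101 and PYE was 0.0633. These are descriptions over arrays that share their groups and normalization.

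Further genes of iron handling and coumarin synthesis were taken from 4 lists. Of 85 such genes, 22 had a probe set of their own. A gene is called measured below only if the annotation pairs a probe set with it alone. The annotation lists no gene for 8730 of the 22746 probe sets and several genes for 503. Whether these include probe sets of the other list genes was not checked. In TiO2 against KCl none of the 22 passed in either direction by limma, where 5.86% of all probe sets passed in the lower and 4.72% in the higher direction. An unadjusted p under 0.05 was found for 3 of the 22, against 23% of all probe sets. Their changes ran from −0.27 to 0.35 log2 with a median of 0.03, against a median of 0.02 over all probe sets. In CeO2 against water none passed by limma either, where 1.16% of all probe sets passed in the lower and 1.26% in the higher direction. An unadjusted p under 0.05 was found for 1 of the 22, against 9.8% of all probe sets. The changes ran from −0.19 to 0.21 with a median of 0.02, against −0.01 over all probe sets. Named genes are up to 4 per list in list order. BHLH18, BHLH19, BHLH25 and, in the closing section, AT3G19860 are regulators named after their values were seen. Names in brackets after a locus are those of the lists.

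**Figure D3:**
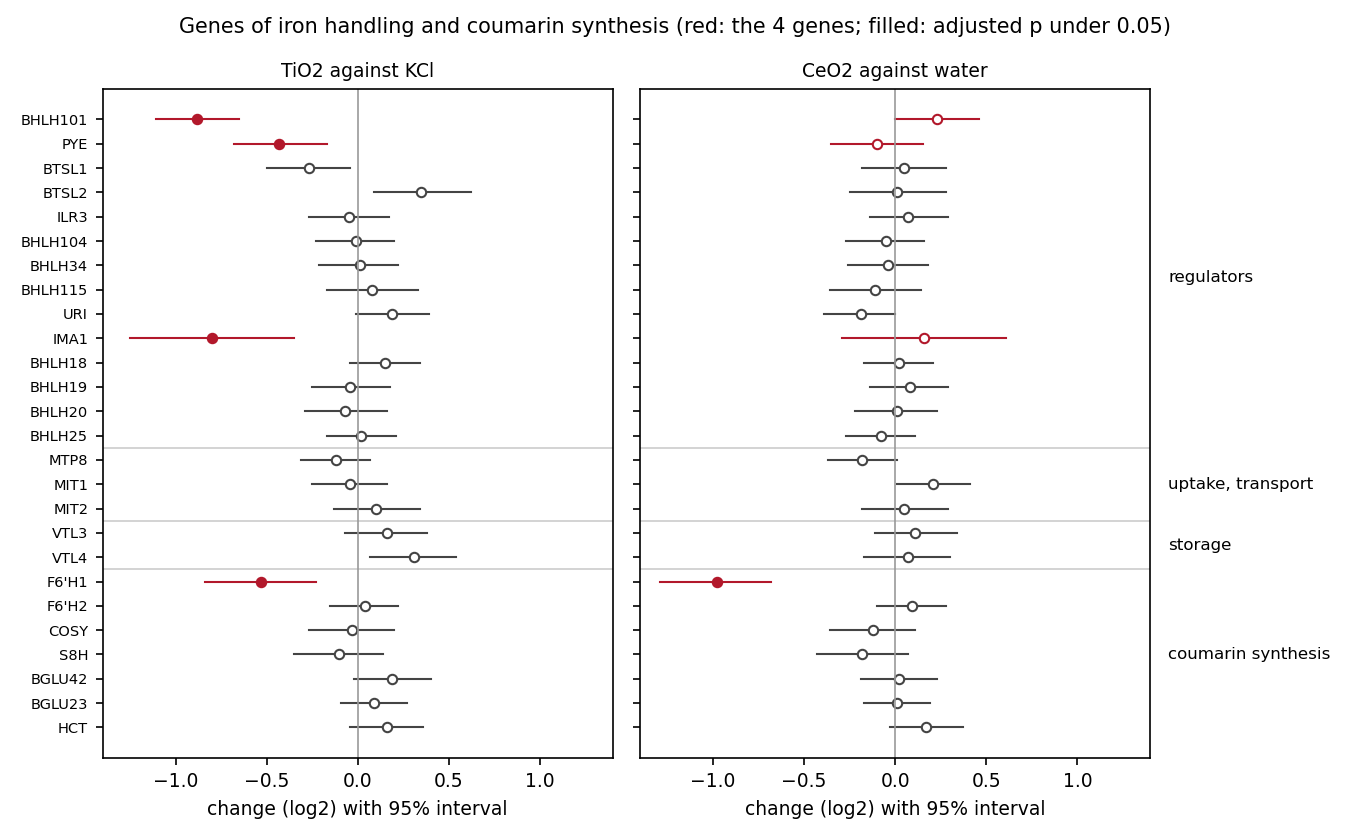
Changes in log2 with 95% intervals (x axis) of the 4 genes (red) and 22 other genes (grey), in list order (y axis), in TiO2 against KCl and in CeO2 against water; filled points have an adjusted p under 0.05. The grey points lie between −0.27 and 0.35 in TiO2 and between −0.19 and 0.21 in CeO2, and none is filled.

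Of the regulators, 11 of 21 were measured. AT1G74770 (BTSL1) and AT1G18910 (BTSL2) encode ubiquitin ligases that restrain the uptake response in the root. In TiO2 BTSL1 was at −0.27 ± 0.11 log2 (limma adjusted p = 0.132) and BTSL2 at 0.35 ± 0.12 (0.0884), on opposite sides of 0. A dimmer probe set of BTSL1 was at −0.08 ± 0.10 (limma adjusted p = 0.735), and the mean of its probe sets at −0.17. BTSL2 passed without TiO2 replicate 1, at 0.47 (limma adjusted p = 0.0310; its alternatives spanned 0.0310 to 0.307). ILR3 and BHLH104, bHLH factors that act upstream of BHLH101 and PYE, were at −0.05 ± 0.10 and −0.01 ± 0.10 in TiO2, and the sign of BHLH104 turned under both other scalings (0.01 and 0). In CeO2 these 4 genes were between −0.05 and 0.07. Named for their low signal, the genes AT2G22750 (BHLH18), AT2G22760 (BHLH19) and AT4G37850 (BHLH25) had group means of 2.83 to 3.40 log2, near the lowest values of the arrays, so that a fall could hardly have been seen. FIT, BHLH38, BHLH39, BHLH100 and BTS had no probe set listed for them alone and were not analysed here.

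Of the uptake and transport genes 3 of 33 were measured in the sense given above. IRT1 and FRO2, the root iron transporter and ferric reductase, were not analysed here. AT3G58060 (MTP8), a manganese and iron transporter of the vacuole, was at −0.12 ± 0.09 in TiO2 and −0.18 ± 0.09 in CeO2. The mitochondrial iron carrier genes AT2G30160 (MIT1) and AT1G07030 (MIT2) were at −0.04 ± 0.10 and 0.10 ± 0.11 in TiO2 and at 0.21 ± 0.10 and 0.05 ± 0.11 in CeO2. The 2 measured storage genes of 10, AT3G43630 (VTL3) and AT3G43660 (VTL4), relatives of the vacuolar iron transporter VIT1, were at 0.16 ± 0.11 and 0.31 ± 0.11 in TiO2 (limma adjusted p = 0.443 and 0.0999). VTL4 passed without TiO2 replicate 2, at 0.43 (limma adjusted p = 0.0228; its alternatives spanned 0.0228 to 0.325). In CeO2 they were at 0.11 ± 0.11 and 0.07 ± 0.11.

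Of the coumarin list 6 of 21 genes besides F6'H1 were measured. AT1G55290 (F6'H2), the second gene of the same hydroxylase, was at 0.04 ± 0.09 in TiO2 and 0.09 ± 0.09 in CeO2 (95% interval −0.10 to 0.28), where F6'H1 fell by 0.98. AT1G28680 (COSY), which closes the coumarin ring, was at −0.03 ± 0.11 in TiO2 and −0.12 ± 0.11 in CeO2. AT3G12900 (S8H), which turns scopoletin into fraxetin, was at −0.10 ± 0.12 and −0.18 ± 0.12. BGLU42, a beta-glucosidase that releases coumarins for secretion, was at 0.19 ± 0.10 in TiO2 and 0.02 ± 0.10 in CeO2. No change of these 4 genes exceeded 0.19 log2 in size in either comparison, and none passed the test (smallest limma adjusted p = 0.286 for TiO2 and 0.625 for CeO2 in the list).

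Some markers of other organs and stages moved with the comparisons. Under TiO2 both measured seed maturation genes of 9 fell, with changes of −2.22 ± 0.36 log2 for M17 and −1.38 ± 0.28 for the storage protein gene PAP85 (limma adjusted p = 0.000763 and 0.00420), and their summed level was 391 to 768 in KCl and 83.2 to 263 in TiO2 (linear units). Within TiO2, replicate 3 was highest for M17, PAP85, BHLH101 and AT1G47400. Within KCl, replicate 3 was highest for M17 and PAP85 but lowest for BHLH101 and AT1G47400. Of the 4 measured root hair genes of 10, only AT4G26010 (PRX44) passed in TiO2, at −0.44 ± 0.12 (limma adjusted p = 0.0267). XTH26 was also below 0, at −0.40 ± 0.12, while EXPA7 and EXPA18 were above it, at 0.34 ± 0.13 and 0.07 ± 0.12. The summed level was 2680 to 3070 in KCl and 2280 to 2530 in TiO2. PRX44, the brightest of the 4 genes, weighs most in that sum. In CeO2 all 4 root hair genes rose, by a median of 1.35 log2, and their summed level went from 1410 to 1910 in water to 3840 to 4530, while AT3G13610 fell. The 3 measured leaf genes of 12 did not pass in either comparison, with changes of −0.13 to 0.03 and −0.05 to 0.01, and none of the 11 markers of inner root tissues had a probe set of its own. The part of these shifts in the changes of the 4 genes was not tested.

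The genes most alike in pattern were sought among the 13512 other probe sets with 1 gene, by Pearson correlation over the 12 arrays after subtraction of the mean of each set of 6. Most like BHLH101 were AT5G12940 and AT2G03200 (both r = 0.966) and AT3G54040 (r = 0.964), which changed by −0.84, −1.08 and −0.69 log2 in TiO2 and by 0.12, 0.39 and 0.10 in CeO2. Most like PYE were AT5G35735 (r = 0.942), AT5G55210 (r = 0.935) and the zinc finger gene STZ (r = 0.904), at −0.41, −0.15 and −1.42 in TiO2 and at −0.13, −0.04 and −0.37 in CeO2. Of these AT5G55210 did not pass in TiO2 (limma adjusted p = 0.273). Most like AT1G47400 were AT1G71950 (r = 0.915), AT2G23540 (r = 0.914) and ARL (r = 0.913), with TiO2 changes of −0.45, −1.60 and −0.58 and CeO2 changes of 0.04, 0.17 and 0.01.

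The genes most like AT3G13610 were AT1G55450 (r = 0.956), AT2G43590 (r = 0.954) and AT4G25900 (r = 0.950), which were at −0.51, −1.86 and −0.33 in TiO2 and at −1.02, −2.52 and −1.06 in CeO2. Each had a lower mean under both particles than in the control, though AT4G25900 did not pass in TiO2 (limma adjusted p = 0.0828). None of the 12 genes was an iron list gene. Of the 85 list genes only the 22 with a probe set of their own could appear among the 13512 probe sets searched. So small a share would rarely be met among 12 genes, and no conclusion is drawn from its absence. These correlations describe arrays that share groups, set and normalization.

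**Figure D4:**
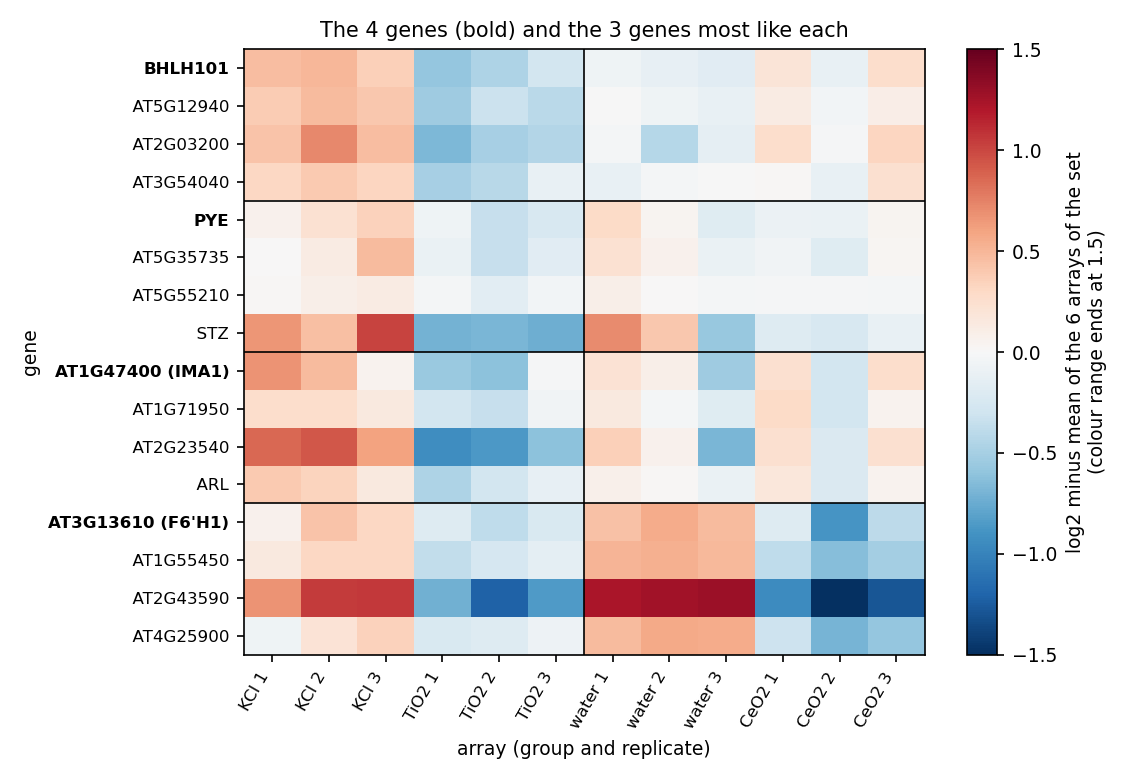
Values on the 12 arrays (x axis) of the 4 genes (bold) and of the 3 genes most like each (y axis), as log2 minus the mean of the 6 arrays of the set (colour, range ending at 1.5). The row of BHLH101 differs mainly between KCl and TiO2, and that of AT3G13610 between both particles and their controls. The row of AT1G47400 also varies within groups, with KCl 3 at 0.056, TiO2 3 at −0.021 and water 3 at −0.539.

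**Figure D5:**
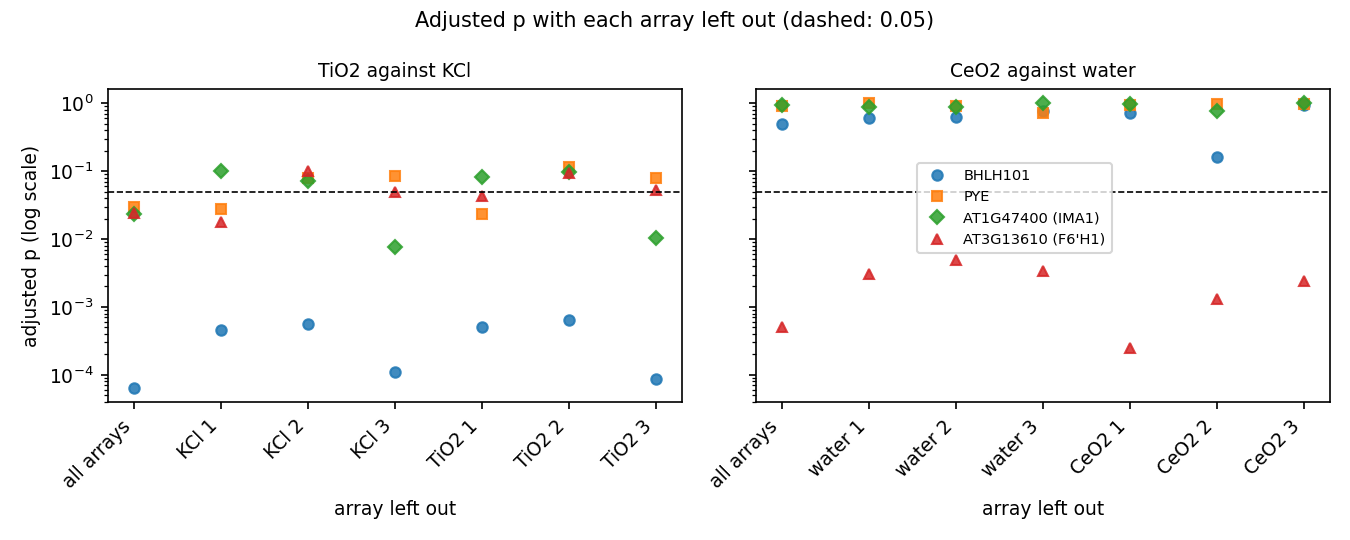
Adjusted p from limma (y axis, log scale) of the 4 genes with all arrays and with each array of the comparison left out (x axis); the dashed line is 0.05. In TiO2 against KCl only BHLH101 stays below the line throughout, and in CeO2 against water only AT3G13610 does.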

How the data were processed

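Transcripts were measured on 12 Affymetrix arrays of whole germinants, 3 per group. The deposited table holds log2 values, 1 per probe set and array, from the authors' RMA run, per the submitters' processing notes; its version, the probe definitions and whether all arrays were normalized together are not given in the sources used here. All 22746 probe sets entered the fit, dim ones included. The annotation pairs 13513 with 1 gene, 503 with several and lists none for 8730; names follow RefSeq (TAIR10.1), used for names only.

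A model with 1 mean per group was fitted to the 12 arrays with limma 3.58.1 under R 4.3.3, with empirical Bayes moderation (8 residual and 7.63 prior degrees of freedom), two-sided, Benjamini-Hochberg over all probe sets, threshold 0.05. Errors are SE of a difference or SD over 3 arrays; 3 arrays per group limit precision. The fit was tested on simulated data. Of true changes of 0.5 log2 it found 65 of 98 for TiO2, 68 of 103 for CeO2 and 66 of 199 for the difference of effects. Of those of 1 log2 it found 101 of 102, 97 of 97 and 191 of 196. False calls made up 6.21% to 7.17% of its calls. A list gene that did not pass may thus have changed by 0.5 log2 or less. The 4 genes, the lists, the tests and the alternatives were chosen with earlier results of these data known. Of a gene's probe sets the brightest was used. By the rule, named list genes are those past the threshold and up to 4 others per list, in list order. BHLH18, BHLH19, BHLH25 and AT3G19860 were named besides these, after their values were seen. For each of the 4 genes, 3 most alike genes are named. Whether replicate numbers pair the arrays was not settled, and the main fit did not pair them. Same-number correlations of deviations were 0.0464 to 0.274 for TiO2 and 0.00223 to 0.302 for CeO2, not all over 0.1. Those of different numbers were −0.288 to 0.221 for TiO2 and −0.229 to 0.17 for CeO2.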

Additional observations from a re-analysis of the deposited data

Results flagged for a closer look

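The effect on BHLH101 differed between the particles by 1.11 log2 (CeO2 effect minus TiO2 effect, limma adjusted p = 0.000225), from a fall of 0.88 in TiO2 and a value of 0.23 in CeO2. The values of 3 TiO2 arrays lay below all 3 KCl arrays, and 2 of 3 CeO2 arrays lay above all water arrays. The particles had different control liquids and sets of arrays, which cannot be told apart from the particle.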

How the results depend on the processing

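The alternatives were a second quantile normalization, centring on array medians, leaving out the dimmest 30% of probe sets, only the 6 compared arrays, an intensity trend with robust prior, a replicate block, the mean of a gene's probe sets (list genes only, since each of the 4 genes had 1) and leaving out each array. With the replicate block no call of the 4 genes changed, PYE in TiO2 staying at −0.43 with a limma adjusted p of 0.0375. Whether replicate numbers pair the arrays was not settled. With only the 6 compared arrays, PYE kept its −0.43 but did not pass, and 1432 probe sets passed in TiO2 against 2407. Without dim probe sets the difference of effects on AT1G47400, at 0.96, passed (limma adjusted p = 0.0491). With single arrays left out, the TiO2 changes spanned −0.99 to −0.66 for AT1G47400, −0.64 to −0.45 for AT3G13610 and −0.50 to −0.36 for PYE, which all lost their call in some of these fits. The CeO2 changes spanned −0.07 to 0.33 for AT1G47400 and −0.21 to 0.02 for PYE, and the difference of effects on AT1G47400 spanned 0.73 to 1.15. The count of 22 list genes past the threshold was 0 to 1 with single arrays left out, for TiO2 (BTSL2 or VTL4) and for the difference of effects (AT3G19860, bHLH121, named after its value was seen). Of 26 changes of the 13 list genes named by list order, 9 changed sign in some fit, none larger than 0.11 in size with all arrays. With single arrays left out these spanned, in TiO2, −0.14 to 0.07 for BHLH104, −0.12 to 0.06 for ILR3, −0.13 to 0.04 for MIT1, −0.03 to 0.17 for MIT2 and −0.13 to 0.04 for COSY. In CeO2 they spanned 0 to 0.16 for BTSL1, −0.07 to 0.10 for BTSL2, −0.02 to 0.23 for VTL3 and −0.06 to 0.10 for BGLU42. BHLH104 in TiO2 was at 0.01 after the second quantile normalization and at 0 after median centring. The causes of these shifts were not tested. Signal over background was not used here, so no gene is called undetected.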
